A study of Mus musculus with 21 samples.

Results

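Megakaryocyte-erythroid progenitors (MEP) were compared with hematopoietic stem cells (HSC) within 1 mouse genotype, Etv6 P216L. The comparison took the 3 MEP and the 3 HSC libraries whose names carry that genotype, 6 of the 21 libraries of the study. Cells of mouse bone marrow were separated by FACS, and total RNA of the sorted cells was turned into sequencing libraries with a low-input kit, SMART-Seq v4, which amplifies cDNA from very few cells. All 6 libraries carry the P216L change in Etv6. WT libraries (3 HSC and 2 MEP) and libraries with both S211I and P216L, the double mutant (3 HSC and 3 MEP), serve as references for this difference. The labels give no age or sex, no sort markers, no treatment and no statement of whether the change is on 1 or both alleles. They do not say whether replicate libraries came from separate mice, so p-values measure the spread between libraries, which may be partly technical. Levels are counts per 1000000 (CPM) after normalization for library composition, differences are log2 fold changes of MEP over HSC with their SE, and a gene passed the test when its edgeR p-value, adjusted over 12036 genes, was under 0.05.

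HSC sit at the top of blood formation and are mostly quiescent. MEP are dividing progenitors committed to red cells and platelets. The step between them is known for loss of stem cell factors such as Meis1 and Hlf, and for the rise of the Gata1 and Klf1 program, which drives genes of the red cell membrane, heme and globin. Etv6 encodes an ETS-family transcriptional repressor that stem cells need to persist in adult bone marrow, and inherited changes in the human gene cause low platelet counts. The series title states that a germline change in ETV6 creates a nuclear export signal. Genes of the stem cell and erythroid programs carry ETS and GATA sites, so the 250 bases upstream of the start of 3 marker genes are shown here. They are from RefSeq, build GRCm38.p6, 5′ to 3′ on the plus strand, and capitals mark matches on either strand to the GATA core GATAA or the ETS core GGAAGT. Mmrn1 lies at chr6:60944067-60944316, Procr at chr2:155750967-155751216 and Klf1 at chr8:84901732-84901981.
Mmrn1: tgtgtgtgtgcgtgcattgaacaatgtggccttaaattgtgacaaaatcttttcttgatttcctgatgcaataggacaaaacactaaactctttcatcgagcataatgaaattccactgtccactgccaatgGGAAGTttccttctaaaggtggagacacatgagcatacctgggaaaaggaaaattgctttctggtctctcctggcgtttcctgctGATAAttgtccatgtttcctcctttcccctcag
Procr: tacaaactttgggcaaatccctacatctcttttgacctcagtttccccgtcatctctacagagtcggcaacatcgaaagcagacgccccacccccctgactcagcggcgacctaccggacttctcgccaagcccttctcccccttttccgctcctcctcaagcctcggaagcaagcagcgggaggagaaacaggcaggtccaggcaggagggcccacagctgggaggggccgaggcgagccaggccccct
Klf1: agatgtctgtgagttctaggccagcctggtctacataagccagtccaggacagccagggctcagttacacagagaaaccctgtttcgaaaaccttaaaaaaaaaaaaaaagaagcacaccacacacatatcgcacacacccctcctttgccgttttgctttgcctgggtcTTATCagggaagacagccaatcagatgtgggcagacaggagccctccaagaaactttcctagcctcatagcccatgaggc
The Mmrn1 window held 1 match to each motif, the Klf1 window 1 GATAA match on the opposite strand, and the Procr window none. GATAA was in 22.6% and GGAAGT in 19.7% of all 32851 promoters of the same length. Of the 9 genes that passed the test below, 8 had a promoter entry. GATAA was in 3 of these (Gimap6, Mmrn1 and Pkm) and GGAAGT in 4 (Gcnt2, Gimap6, Mmrn1 and Mre11a). A gene was counted if any of its promoter entries had the match, while the shares above are per entry. The counts and shares are therefore not directly comparable. A match describes the letters of the window only.

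The 3 HSC libraries differed from each other far more than the 3 MEP libraries did, and this bears on every result below. HSC replicates 1, 2 and 3 held 406023, 837664 and 850139 counts over 3988, 8145 and 8726 detected genes. The MEP libraries held 7932164, 6621103 and 3387395 counts over 14815, 14494 and 12899 genes. After thinning every library to 406023 counts, 3988, 7894 and 8431 genes remained detected in HSC, and 10406, 10533 and 10439 in MEP. Of 2977 genes with a mean of at least 100 CPM in MEP, HSC replicate 1 had 38.3% at 0 counts, replicate 2 6.79% and replicate 3 2.25%. Across genes, the correlation of log2(CPM + 1) with the MEP mean was 0.400, 0.591 and 0.715 in the 3 HSC libraries. Each MEP library, set against the mean of the other MEP libraries, gave 0.981 to 0.989. The median SD of log2(CPM + 1) was 2.36 among the HSC libraries and 0.246 among the MEP libraries. A range of more than 3 log2 units was seen for 61.4% of genes in HSC and for 0.216% in MEP. Counts of 4 Y-linked genes were present in all 6 libraries, at 199 to 446 summed CPM, and Xist was at 0 in the HSC and at most 0.347 CPM in the MEP libraries.

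Between MEP and HSC, 9 of 12036 genes passed the test, a share of 0.0748%. Mre11a alone was higher in MEP (0.00831% of genes), and 8 were lower (0.0665%), among them Mmrn1, Serpina3g, Pik3ip1, Pkm, Gcnt2, Gimap6 and Ltb. At an unadjusted p under 0.05 there were 1573 higher genes (13.1%) and 799 lower ones (6.64%). All 3 MEP libraries lay above all 3 HSC libraries for 3785 genes (31.4%) and below them for 361 (3%). The median log2 fold change over all genes was 0.56 (0.22 under another size factor method, relative log expression), so the centre of the comparison itself lay toward MEP. Fold changes of single genes below are not shifted for it. The balance of directions depended on the fit. DESeq2 called 764 higher (6.35%) and 518 lower (4.3%), a fit of the 6 libraries alone 357 higher and 33 lower, and the edgeR fit without HSC replicate 3 340 higher and 100 lower. Without the library labelled HSC S211I replicate 2, which enters the fit but not the comparison, 94 were higher and 24 lower. Other settings called more genes lower than higher. Voom with weights per cell type called 0 higher and 42 lower, and relative log expression factors 5 higher and 21 lower. Thinning to equal depth gave 2 higher and 10 lower, and the replicate block over all libraries 0 higher and 5 lower.

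Mmrn1 (Entrez gene 70945) encodes multimerin 1, an adhesive protein of platelets and endothelium whose transcript is also abundant in stem cells. It stood at 1168, 135 and 450 CPM in HSC replicates 1, 2 and 3 and at 2.93, 8.34 and 3.09 CPM in MEP. The lowest HSC value was still far above every MEP value, and Mmrn1 fell by 6.91 ± 1.01 (SE) on the log2 scale (edgeR adjusted p = 0.0028).

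A further 6 lower genes have varied roles. Serpina3g (20715), a serine protease inhibitor of blood cells, was at 479, 993 and 413 CPM in HSC and at 16.1, 13.2 and 19.2 CPM in MEP. It fell by 5.28 ± 0.91 (edgeR adjusted p = 0.0225). Pik3ip1 (216505), an inhibitor of PI3 kinase, was at 819, 537 and 445 CPM in HSC and at 20.3 to 24.7 CPM in MEP. It fell by 4.77 ± 0.87 (edgeR adjusted p = 0.0236), and its HSC values lay closer together, as a ratio of highest to lowest, than those of Mmrn1, Serpina3g, Pkm, Gcnt2, Gimap6 and Ltb. Pkm (18746), the pyruvate kinase that ends glycolysis, was at 827, 770 and 270 CPM in HSC and at 18.2, 17.7 and 30.6 CPM in MEP. It fell by 4.81 ± 0.93 (edgeR adjusted p = 0.0456).

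Gcnt2 (14538), the enzyme that branches the I blood group chain, was at 325, 545 and 38.0 CPM in HSC and 5.73 to 6.15 CPM in MEP. HSC replicate 3 was the low library here, though still above MEP, and the fold change was -5.67 ± 1.13. Gimap6 (231931), a GTPase of lymphocytes and other blood cells, was at 573, 813 and 219 CPM in HSC and 20.5 to 32.6 CPM in MEP. Ltb (16994), the membrane anchor of lymphotoxin, was at 213, 339 and 115 CPM in HSC and 0.732 to 2.06 CPM in MEP. Gimap6 and Ltb had fold changes of -4.38 ± 0.89 and -7.25 ± 1.47, and all 3 genes had an edgeR adjusted p of 0.0456. In Serpina3g, Pik3ip1, Pkm, Gcnt2, Gimap6 and Ltb alike, HSC replicate 3 was the lowest HSC library and no HSC value reached the MEP range. Serpina3g and Gimap6 belong to families of close copies, as do the Ifitm, MHC class I and ribosomal protein genes below, and reads may be split between copies, so their levels are uncertain.

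Mre11a (17535) encodes the nuclease of the complex that senses DNA breaks. It had 0 counts in all 3 HSC libraries and stood at 113, 139 and 109 CPM in MEP (edgeR adjusted p = 0.0456). With 3 counts given to the summed HSC libraries as a floor, it was at least 93.7-fold higher in MEP. That floor covers counting error only. Of 12036 genes, 2100 were at 0 in every P216L library of at least 1 cell type. Mre11a was also at 0 in WT HSC, but double-mutant HSC stood at 76.5, 2.40 and 86.1 CPM. Mmrn1 passed in 14 of 16 alternative settings and Mre11a in 6. No call passed without MEP replicate 1 or 3, and 1 passed without MEP replicate 2.

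**Figure D1:**
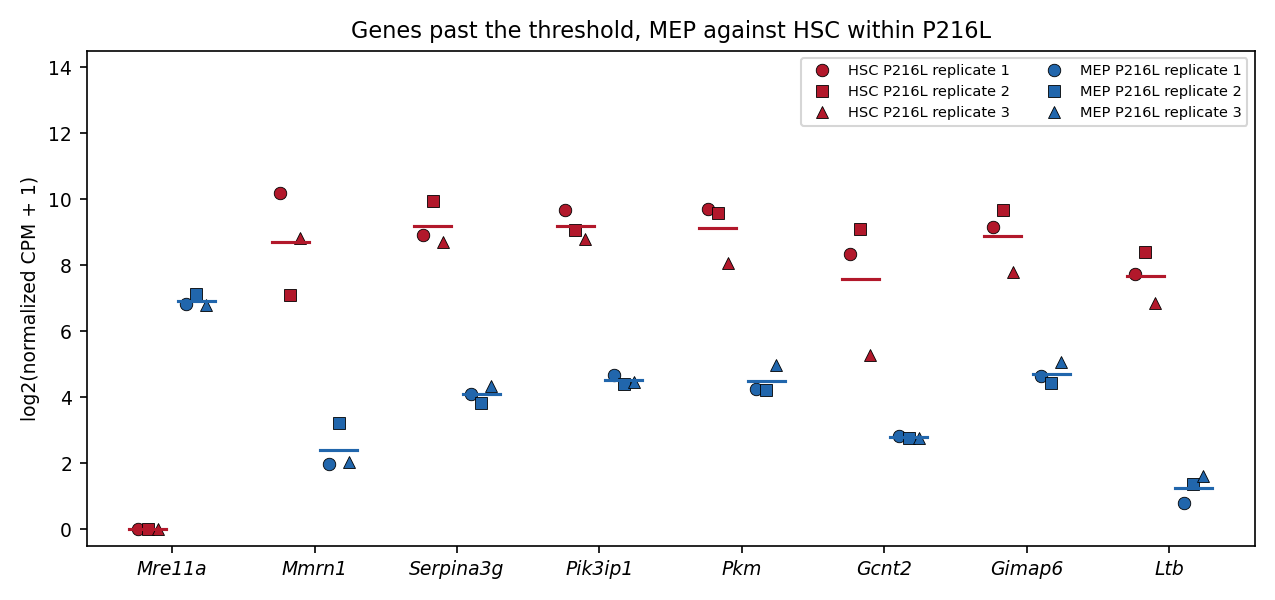
Each point is 1 library; the x axis names genes that passed the test and the y axis is log2(normalized CPM + 1). Red marks HSC P216L, blue marks MEP P216L, shapes give the replicate and bars the mean. Mre11a is at 0 in every HSC library, and the other genes shown lie higher in all HSC than in all MEP libraries.

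The labelled cell types were checked with 5 markers. Procr (19124), the protein C receptor used to sort stem cells, was at 86.1, 174 and 23.3 CPM in HSC and at 0, 0 and 1.03 CPM in MEP. Meis1 (17268), a homeobox factor of stem cells, was at 184, 239 and 191 CPM in HSC and at 10.4, 7.64 and 15.8 CPM in MEP. Procr and Meis1 did not overlap between the cell types, with fold changes of -8.24 ± 1.99 and -4.18 ± 1.05, but missed the threshold (edgeR adjusted p = 0.071 and 0.072). Car1 (12346), the red cell carbonic anhydrase, was at 749, 1096 and 2496 CPM in HSC and 9459, 10814 and 10426 CPM in MEP. Its fold change of 2.82 ± 0.82 also missed the threshold (edgeR adjusted p = 0.10).

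Klf1 (16596), the master factor of erythroid genes, did not mark MEP off from HSC. It was at 716, 510 and 483 CPM in HSC and at 891, 744 and 736 CPM in MEP. The HSC values came close to the MEP range without entering it, and the fold change was 0.47 ± 0.73 (edgeR adjusted p = 0.80). The stem cell markers therefore went with the HSC labels in all 3 libraries, while an erythroid factor was present in the libraries labelled HSC at nearly the MEP level. Etv6 (14011) itself was at 166, 64.3 and 170 CPM in HSC and 28.8, 43.3 and 37.5 CPM in MEP. All HSC values were above all MEP values, with a fold change of -1.87 ± 0.92 (adjusted p = 0.26); the counts do not separate the P216L allele from any other.

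**Figure D2:**
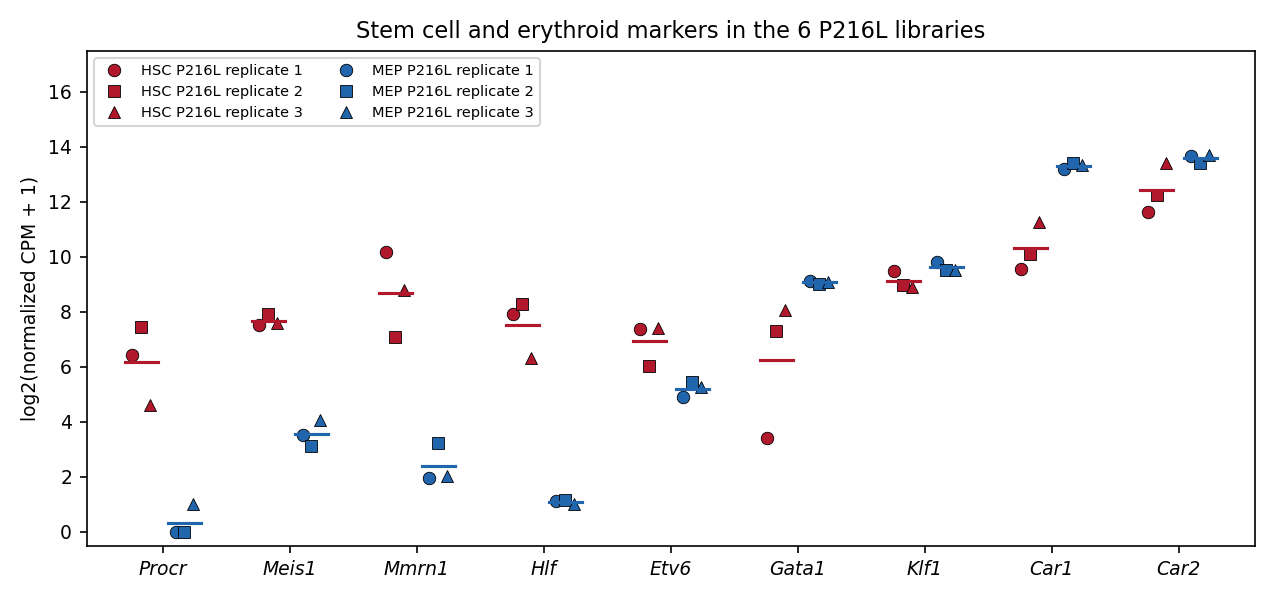
Levels of stem cell and erythroid genes in the 6 P216L libraries, as log2(normalized CPM + 1) on the y axis; red is HSC, blue is MEP, shapes give the replicate and bars the mean. The 3 Procr and the 3 Meis1 values of HSC lie above those of MEP, the Klf1 values of both cell types lie close together, and Gata1 spreads from 9.75 to 267 CPM in HSC.

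Stem cell transcription factors were lower in MEP in most members, though none passed edgeR's test. Of 22 members measured, 2 had a positive fold change, against 62.4% of all genes, and the median was -3.96 (-2.43 without HSC replicate 1 and -2.01 without replicate 3). At an unadjusted p under 0.05, 12 were lower and 1 higher. DESeq2 called 10 lower and 1 higher. The summed level was 2016, 2451 and 1504 CPM in HSC and 558, 590 and 571 CPM in MEP. Hlf, a bZIP factor largely restricted to stem cells, was at 240, 316 and 78.5 CPM in HSC and 1.03 to 1.22 CPM in MEP (-7.49 ± 1.61, edgeR adjusted p = 0.054). Hoxa9, a homeobox factor, was at 133, 398 and 14.7 CPM in HSC and 6.87 to 9.08 CPM in MEP. Mecom, a zinc-finger factor of long-term stem cells, was at 76.3, 237 and 26.97 CPM in HSC and 0.347 to 2.75 CPM in MEP. Hlf, Hoxa9 and Mecom shared an order within HSC: replicate 2 highest and replicate 3 lowest. The other members did not all share it. Over the 22 members, replicate 2 was the highest HSC library in 10, against 32.6% of all genes. Replicate 3 was the highest in 7, against 36.8% of all genes. All 3 MEP libraries lay below all 3 HSC libraries in 4 members, against 3% of all genes. They lay above them in 1 member, against 31.4% of all genes.

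Stem cell surface and adhesion genes followed the same pattern. Of 24 members tested, 2 fell, Mmrn1 among them, 17 had a negative fold change, and 10 were lower in all 3 MEP than in all 3 HSC libraries, as were 3% of all genes. The median was -3.27, against 0.56 over all genes, and -1.87 without HSC replicate 2. Summed, they stood at 2773, 4277 and 2667 CPM in HSC and 919, 1040 and 764 CPM in MEP. Cd34, a sialomucin of early progenitors, was at 50.4, 626 and 113 CPM in HSC and 5.56 to 20.6 CPM in MEP (-4.61 ± 1.32, edgeR adjusted p = 0.10). Cd27, a TNF receptor of multipotent progenitors, was at 491, 321 and 33.1 CPM in HSC and 1.22 to 7.22 CPM in MEP (-6.32 ± 1.53, adjusted p = 0.071). Ly6a, which encodes Sca-1, was at 29.2, 19.9 and 78.5 CPM in HSC and at most 1.03 CPM in MEP.

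Without HSC replicate 3, edgeR called 340 genes higher (2.81%) and 100 lower (0.827%) of 12092, and all 9 calls made with it were among them. The 340 higher genes included the erythroid factors Tal1, Mafk and Tfdp2, the carbonic anhydrases Car1 and Car2, the replication genes Mcm10 and Cdt1, the mitosis genes Kif20a and Ect2, and Ncl, Fbl, Rplp0 and Ldha. Tal1 is also in the list of stem cell transcription factors, where it was the 1 member called higher in this fit, against 4 called lower. The 100 lower genes included Meis1, Hlf, Mecom, Hoxa9, Procr, Cd34, Cd27, Esam and Ifitm1. They also included Lyz2, Mycn and Cdkn1c, and the bone matrix genes Col1a1, Col1a2 and Sparc. These bone matrix genes stood at 2514, 5940 and 2175 CPM in HSC replicate 1 and at 0 in replicate 2. For the 100 lower genes, median levels were 192 and 138 CPM in HSC replicates 1 and 2, 19.6 CPM in the omitted replicate 3 and 1.04 to 1.89 CPM in MEP. Replicate 3 lay below both other HSC libraries in 73 of them, and inside or beyond the MEP range in 38. For the 340 higher genes the medians were 0 and 0 CPM in replicates 1 and 2, 77.8 CPM in replicate 3 and 96.7 to 107 CPM in MEP. Replicate 3 lay above both other HSC libraries in 301 of the 340, and at or above the lowest MEP library in 125 (36.8%). These genes were chosen by libraries 1 and 2, so the place of replicate 3 is a description.

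Erythroid genes set HSC replicate 3 apart from the other HSC libraries. The list of erythroid membrane, carbonic anhydrase and globin genes summed to 7082, 9104 and 47631 CPM in HSC and to 30163, 29824 and 31428 CPM in MEP. HSC replicate 3 was thus above all MEP libraries, and replicates 1 and 2 were far below them. It was the highest HSC library in 25 of 27 members, against 36.8% of all genes, and above the highest MEP library in 16, against 30.7% of all genes. None of the 27 passed edgeR's test (2 higher and 4 lower at an unadjusted p under 0.05; DESeq2 called 1 higher and 5 lower), and the median fold change was 0.59, near that of all genes. Without replicate 3 it was 1.98, and that of all genes 1.33.

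Globin transcripts made up much of that excess. Since globin genes are near-identical copies whose reads can be split between them, they are given as a sum: 2423, 898 and 24292 CPM in HSC and 507, 1083 and 1661 CPM in MEP. HSC replicate 3 was more than any MEP library and more than the WT HSC libraries, at 357 to 2630 CPM. Slc4a1, the anion exchanger of the red cell membrane, had 0 counts in HSC replicates 1 and 2, 619 CPM in replicate 3 and 4.68, 52.6 and 9.28 CPM in MEP. Its level in HSC replicate 3 exceeded that of every MEP library. By contrast, Car2, the other red cell carbonic anhydrase, was at 3195, 4927 and 10904 CPM in HSC and 13036, 11040 and 13336 CPM in MEP, and HSC replicate 3 stayed just under MEP.

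Erythroid and megakaryocyte transcription factors also differed among the HSC libraries. Of 20 members, 14 had a positive fold change and the median was 0.53; none passed edgeR's test, 1 was higher and 1 lower at an unadjusted p under 0.05, and DESeq2 called 1 in each direction. Gata1, the factor that commits cells to these lineages, was at 9.75, 156 and 267 CPM in HSC and 551, 523 and 549 CPM in MEP (1.90 ± 1.00, edgeR adjusted p = 0.30). Tal1, its partner, was at 0, 0 and 12.3 CPM in HSC and 70.0, 97.6 and 52.6 CPM in MEP (4.14 ± 1.45, adjusted p = 0.11). Fli1, an ETS factor of megakaryocytes and stem cells, went the other way, at 122, 182 and 195 CPM in HSC and 10.4 to 11.6 CPM in MEP (-3.91 ± 1.18, adjusted p = 0.10). The list sum was 2363, 3559 and 5404 CPM in HSC, the last above the MEP range of 4706 to 4961 CPM.

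Heme synthesis genes summed to 3664, 3605 and 11176 CPM in HSC and 5899 to 6604 CPM in MEP. HSC replicate 3 exceeded the highest MEP library in 12 of 18 members, against 30.7% of all genes. None passed edgeR's test (1 higher and 0 lower at an unadjusted p under 0.05; DESeq2 called 1 higher), and the median was 0.28, or -0.22 under relative log expression factors, so no direction is given for this list. Alas1, the housekeeping form of the first heme enzyme, had 0 counts in all 3 HSC libraries and 52.6, 57.5 and 59.8 CPM in MEP. It was at least 44.0-fold higher in MEP (edgeR adjusted p = 0.10), a bound for the P216L libraries only. In the reference HSC, Alas1 was at 71.0, 0 and 0 CPM in WT and at 58.4, 2.40 and 20.9 CPM in the double mutant.

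Megakaryocyte and platelet genes were lower in MEP in 10 of the 17 members tested, with a median of -1.63. Without HSC replicate 2 the median was 0.51, so 1 library set its sign. At an unadjusted p under 0.05, 4 were higher and 3 lower, and 1 was called lower by edgeR. The sum was 747, 1570 and 859 CPM in HSC and 224 to 257 CPM in MEP, so all HSC libraries were above all MEP libraries. HSC replicate 2 was the highest HSC library in 9 of the 17, against 32.6% of all genes.

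**Figure D3:**
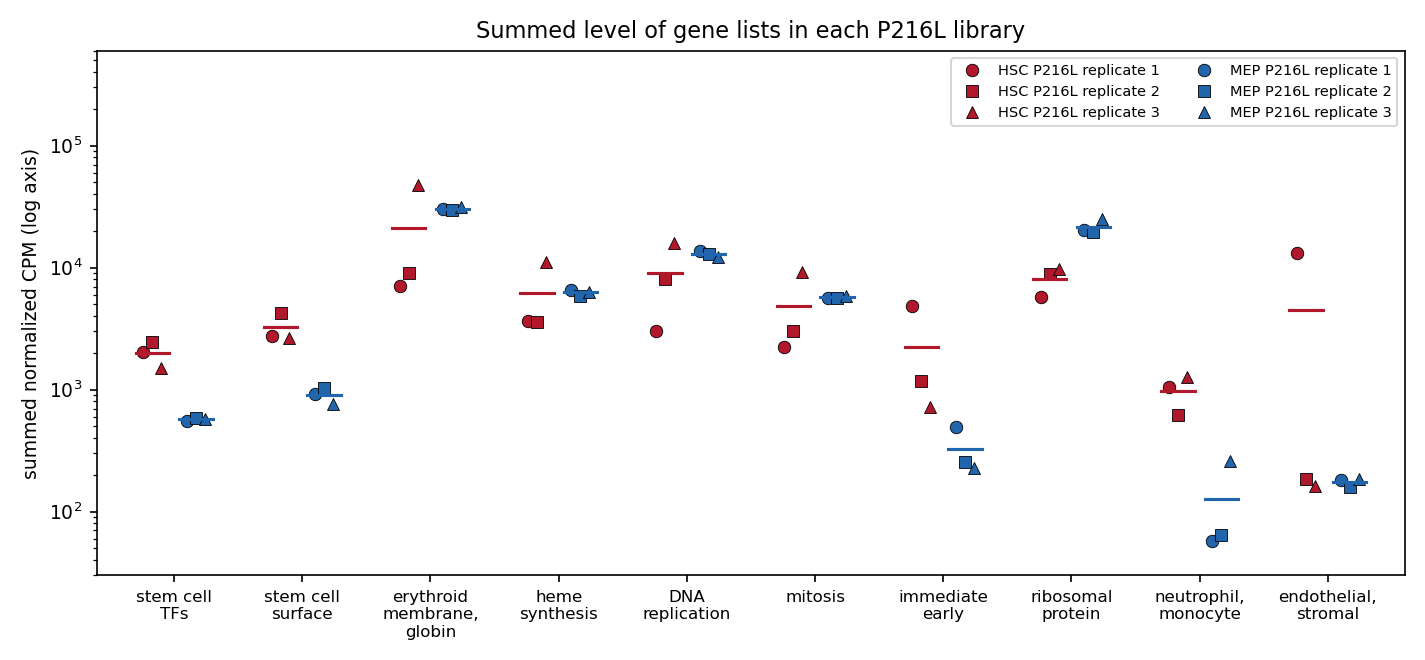
Summed normalized CPM of the members of 10 gene lists in each P216L library, on a log y axis; red is HSC, blue is MEP, shapes give the replicate and bars the mean. HSC replicate 3 stands above the MEP libraries for erythroid, heme, replication and mitosis genes, and HSC replicate 1 stands apart at 13083 CPM for endothelial and stromal markers.

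Cell cycle genes were also highest in HSC replicate 3. DNA replication genes summed to 2998, 8067 and 15883 CPM in HSC and 12273 to 13817 CPM in MEP. Mitosis and cytokinesis genes summed to 2254, 3043 and 9127 CPM in HSC and 5627 to 5878 CPM in MEP. In both lists replicate 1 was lowest and replicate 3 exceeded every MEP library. Replicate 3 was above the highest MEP library in 12 of 30 replication members, near the 30.7% of all genes, and in 19 of 26 mitosis members. No member of either list passed edgeR's test, and 1 in each was higher at an unadjusted p under 0.05. DESeq2 called 0 replication and 1 mitosis gene. The medians were 0.71 and 0.31; the mitosis median was -0.06 under relative log expression factors and -0.11 without HSC replicate 1.

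Single cycle genes showed the spread. Mcm5, a subunit of the replicative helicase, was at 1.62, 154 and 506 CPM in HSC and 683, 704 and 641 CPM in MEP (1.61 ± 0.92, edgeR adjusted p = 0.35). Dut, which removes dUTP, was at 76.3, 152 and 244 CPM in HSC and 421 to 464 CPM in MEP (1.47 ± 0.70, adjusted p = 0.24). Cenpe, a kinetochore motor, was nearly absent from HSC at 0, 0 and 1.23 CPM and stood at 74.1, 83.2 and 102 CPM in MEP (7.56 ± 2.10, adjusted p = 0.098). Cenpe was low in HSC replicate 3 although that library had the highest sum of the mitosis list. Cdkn1c, the p57 inhibitor that holds stem cells in quiescence, was at 247, 96.4 and 28.2 CPM in HSC and 1.22 to 1.72 CPM in MEP (-6.37 ± 1.82, adjusted p = 0.10). Cdkn1c was lowest in HSC replicate 3, but the list of CDK inhibitors and quiescence genes as a whole was not. That list also holds a cyclin gene, so its sum and counts are not those of inhibitors and quiescence genes alone. It summed to 3091, 1716 and 3432 CPM in HSC and 1058 to 1307 CPM in MEP. Replicate 3 was the highest HSC library in 8 of its 18 members, against 36.8% of all genes. The list had a median of -2.06 over 18 members, with 0 called by edgeR, 5 lower and 0 higher at an unadjusted p under 0.05, and 5 lower by DESeq2.

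Genes of ribosome production lay higher in MEP than in all 3 HSC libraries. Cytosolic ribosomal protein genes had a positive fold change in 26 of 26 members, and in 25 all MEP libraries lay above all HSC libraries, against 31.4% of all genes. The median was 1.46, and 20 members were higher at an unadjusted p under 0.05. None passed after adjustment by edgeR, and DESeq2 called 6 higher. The sum was 5794, 8786 and 9811 CPM in HSC and 20517, 19547 and 25157 CPM in MEP. Rplp0, a stalk protein of the large subunit, was at 352, 643 and 907 CPM in HSC and 1932, 1707 and 2180 CPM in MEP (1.61 ± 0.44, edgeR adjusted p = 0.098). Rps2 of the small subunit was at 136, 327 and 408 CPM in HSC and 1063 to 1338 CPM in MEP (2.00 ± 0.59, adjusted p = 0.10).

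Myc and nucleolar genes had a positive fold change in 22 of 24 members and a median of 1.35. Ncl, the nucleolar protein nucleolin, was at 739, 379 and 700.0 CPM in HSC and 2285, 2555 and 2422 CPM in MEP (2.00 ± 0.46, edgeR adjusted p = 0.071). Fbl, the methyltransferase fibrillarin, was at 0, 0 and 23.3 CPM in HSC and 334, 378 and 332 CPM in MEP (5.46 ± 1.32, adjusted p = 0.071). Heatr1, a factor of the small subunit processome, was at 0, 1.11 and 0 CPM in HSC and 99.99 to 261 CPM in MEP. The 2 members with a negative fold change were Rrp9, at -0.13, and Mycn. Mycn was at 76.3, 415 and 15.9 CPM in HSC and 2.49 to 6.19 CPM in MEP (-5.19 ± 1.48, adjusted p = 0.10). None of the 24 passed edgeR's test, 8 were higher and 1 lower at an unadjusted p under 0.05, and DESeq2 called 6 higher and 1 lower.

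Energy metabolism genes lay mostly higher in MEP. Nuclear-encoded oxidative phosphorylation genes had a positive fold change in 28 of 30 members and a median of 1.07. Their sum was 6145, 8594 and 10459 CPM in HSC and 16528 to 19823 CPM in MEP. Atp5b, the catalytic subunit of the ATP synthase, was at 1241, 1116 and 1751 CPM in HSC and 3143, 3563 and 3713 CPM in MEP (1.34 ± 0.40, edgeR adjusted p = 0.10). None passed edgeR's test, 3 were higher at an unadjusted p under 0.05, and DESeq2 called 1. Of 19 glycolysis genes, 14 had a positive fold change, with a median of 0.79, against 0.56 over all genes. At an unadjusted p under 0.05, 4 were higher and 2 lower. With edgeR 1 was called lower, Pkm, and DESeq2 called 1 in each direction. Ldha, which reduces pyruvate to lactate, was at 95.8, 462 and 610.5 CPM in HSC and 1481, 1805 and 2061 CPM in MEP (2.19 ± 0.55, edgeR adjusted p = 0.075). Pkm and Ldha, neighbouring steps of the pathway, therefore had opposite signs, each without overlap between the cell types. In bulk libraries, fewer cells of a type and less RNA per cell cannot be told apart.

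Immediate early genes were highest in HSC replicate 1. They summed to 4813, 1168 and 722 CPM in HSC and 492, 257 and 226 CPM in MEP. Jun, an AP-1 subunit, was at 1514, 135 and 47.8 CPM in HSC and 129, 29.7 and 31.6 CPM in MEP, with overlap between the cell types. Dusp1, a phosphatase of MAP kinases, was at 911, 357 and 151 CPM in HSC and 32.5, 6.60 and 5.15 CPM in MEP (-4.99 ± 1.12, edgeR adjusted p = 0.066). Replicate 1 was the highest library of its cell type for Jun and Dusp1 in both HSC and MEP. Glucocorticoid-responsive genes instead had their highest sum in HSC replicate 2, at 1777, 2651 and 1021 CPM in HSC and 298 to 395 CPM in MEP. Replicate 2 was the highest HSC library in 5 of the 11 members tested, against 32.6% of all genes. The list median was -1.07, but 0.59 without HSC replicate 2, so 1 library set its sign. Tsc22d3, the glucocorticoid-induced leucine zipper, was at 575, 1059 and 477 CPM in HSC and 59.8 to 74.2 CPM in MEP (-3.36 ± 0.72, adjusted p = 0.054).

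Antigen presentation, interferon and ETS genes gave no call with edgeR. MHC class I presentation genes overlapped between the cell types, with sums of 5868, 8416 and 5081 CPM in HSC and 5198 to 5764 CPM in MEP. Their median was -0.19 over 16 members, with 1 higher and 1 lower at an unadjusted p under 0.05 and 1 lower by DESeq2, and it was 0.37 without HSC replicate 2. H2-K1, a classical MHC class I heavy chain and the member with the smallest p, was at 2164, 1996 and 1042 CPM in HSC and 642, 581 and 578 CPM in MEP (-1.53 ± 0.44, edgeR adjusted p = 0.10). Ifitm3, an antiviral membrane protein, was at 505, 284 and 156 CPM in HSC and 29.9 to 39.5 CPM in MEP (-3.19 ± 1.02, adjusted p = 0.10). Both were lowest in HSC replicate 3. The ETS family had a median of -1.32 over 18 members (0.19 without HSC replicate 2, so 1 library set its sign), with 2 higher and 5 lower at an unadjusted p under 0.05 and 1 higher and 4 lower by DESeq2. Among Etv6 co-repressor and nuclear export genes, 19 of 21 had a positive fold change, with a median of 1.08, 4 higher at an unadjusted p under 0.05, and 2 higher and 1 lower by DESeq2. Tbl1xr1, a subunit of the NCoR co-repressor complex, was at 0, 9.97 and 4.90 CPM in HSC and 75.4, 98.8 and 83.8 CPM in MEP (4.07 ± 1.36, adjusted p = 0.10).

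Each HSC library also held genes at a level far above the other P216L HSC libraries; these were picked by that excess and are given with no test. HSC replicate 1 was led by bone matrix genes: Col1a2 at 5940 CPM, Ibsp at 3058, Col1a1 at 2514 and Sparc at 2175. The other HSC libraries were at 0 for Ibsp, Col1a1 and Sparc and at no more than 1.23 CPM for Col1a2, and the MEP libraries were at no more than 4.47 CPM. Thap6 followed, at 828 CPM in that library. Bglap, which encodes osteocalcin, was at 223 CPM in replicate 1 and at 0 in the other 5. Endothelial and stromal markers summed to 13083, 186 and 162 CPM in HSC and 159 to 185 CPM in MEP. Replicate 1 was the highest HSC library for 7 of 19 members tested, against 14.3% of all genes. Pecam1, an endothelial surface protein, and Cdh5, the endothelial cadherin, were both at 0 in that library. Such transcripts were not limited to P216L: replicate 3 of the double-mutant HSC held Col1a2 at 2237, Col1a1 at 1624 and Sparc at 1487 CPM, and WT HSC replicates 1 and 2 held Sparc at 90.7 and 180.1 CPM. The summed endothelial and stromal markers reached 9038 CPM in double-mutant HSC and 2705 CPM in WT HSC. The fold change of Sparc was -11.73 ± 2.93 with all libraries and 2.71 without replicate 1.

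HSC replicate 2 was led by Hyal2 at 316 CPM, Cog6 at 309, Gemin5 at 275, Pea15a at 266 and Gng12 at 255, each at 0 in both other HSC libraries. These genes encode a hyaluronidase, a Golgi tethering subunit, an SMN complex protein, a death effector domain protein and a G protein subunit, and belong to none of the lists. HSC replicate 3 was led by genes that included Slc4a1, Gapvd1 at 577 CPM, Rgs12 at 401 CPM and Trak2 at 384 CPM, each at 0 in replicates 1 and 2. The leading genes were thus bone matrix in replicate 1, unrelated in replicate 2 and partly red cell in replicate 3.

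Markers of other blood cells were present in several libraries. Neutrophil and monocyte markers summed to 1041, 624 and 1276 CPM in HSC and 57.5, 63.8 and 260 CPM in MEP. HSC replicate 3 was the highest HSC library in 9 of the 15 members tested, against 36.8% of all genes. The list median was -1.65, but 4.9996 without HSC replicate 3, so 1 library set its sign. Lyz2, the lysozyme of neutrophils and monocytes, was at 885, 294 and 170 CPM in HSC and 16.2, 3.995 and 46.7 CPM in MEP (-4.34 ± 1.05, edgeR adjusted p = 0.071). Lyz2 was thus lowest in the HSC library with the highest sum and does not stand for the list. Elane was at 0, 0 and 9.81 CPM in HSC and at most 13.2 CPM in MEP. Lymphoid markers summed to 41 to 127 CPM in all 6 libraries. Pax5, the B cell factor, was at 0, 31.0 and 8.58 CPM in HSC and at most 0.695 CPM in MEP. Mast cell and basophil markers summed to 50, 1096 and 785 CPM in HSC and 630 to 1000 CPM in MEP. The part of such cells in the differences between MEP and HSC was not tested.

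**Figure D4:**
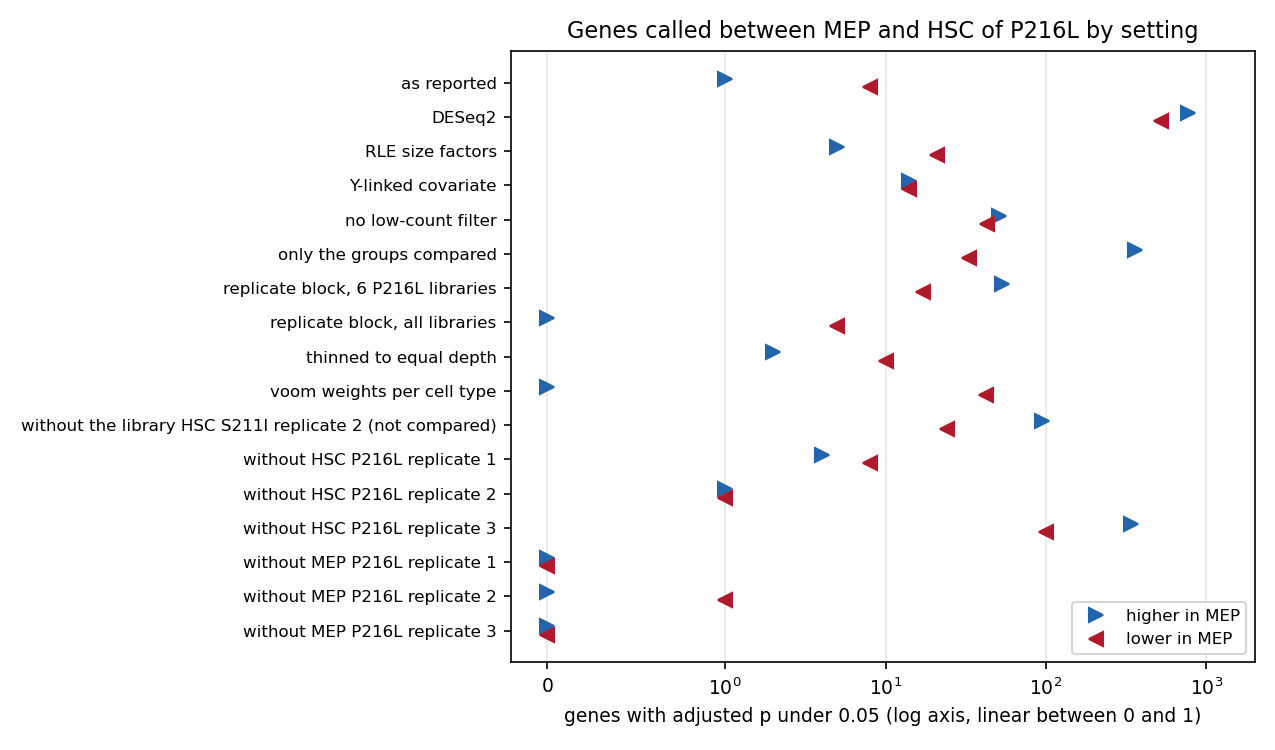
Genes with an adjusted p under 0.05 between MEP and HSC of P216L (x axis, log scale, linear from 0 to 1) under each setting (y axis); right-pointing markers are genes higher in MEP, left-pointing markers genes lower in MEP. Leaving out HSC replicate 3 gives 340 higher and 100 lower genes, while leaving out MEP replicate 1 or 3 gives 0 of either.

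To ask whether the MEP to HSC difference depended on genotype, the difference in P216L was compared with that in WT as an interaction term in the same fit. It was smaller in P216L for 12 genes and larger for 0 (0.0997% of 12036; 1948 at an unadjusted p under 0.05, DESeq2 950). The 2 differences have no libraries in common. The 12 genes were Racgap1, Sec24c, Atad2, Pus7, Rrm1, Nxpe2, Uba2, Mrpl19, Pcyt1a, Oser1, Hpf1 and Nde1. In all 12, every P216L HSC library lay above every WT HSC library, and in 10 the MEP ranges of the genotypes overlapped. In 8, all WT HSC libraries were at 0 counts. The 12 genes were chosen by these same libraries, so the order of the HSC groups and the zeros in WT HSC are a description. The matching shares over all genes are not given here, so these counts have no background to be set against. The P216L HSC values of the 12 genes ran from 38.8 to 1504 CPM, and the ratio of mean MEP to mean HSC level in P216L from 0.387 to 2.74.

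Rrm1, the large subunit of ribonucleotide reductase, was at 372, 616 and 1504 CPM in P216L HSC and 7.89, 1.82 and 51.4 CPM in WT HSC. MEP stood at 1297 to 1407 CPM in P216L and 1452 and 1467 CPM in WT. The MEP to HSC difference was thus 0.68 in P216L and 6.12 in WT, and their difference was -5.43 ± 1.02 (edgeR adjusted p = 0.0294). Uba2, a subunit of the enzyme that activates SUMO, had even P216L HSC values of 214, 237 and 230 CPM, against 7.89, 9.10 and 1.84 CPM in WT HSC and 581 to 681 CPM in P216L MEP. Its difference between genotypes was -5.19 ± 1.03 (edgeR adjusted p = 0.0367). Sec24c, a coat protein of vesicles leaving the endoplasmic reticulum, was at 580, 182 and 508 CPM in P216L HSC and 1.82 to 3.94 CPM in WT HSC, and differed by -7.06 ± 1.26 (adjusted p = 0.0268).

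Racgap1, which is needed for cytokinesis, was at 663, 106 and 243 CPM in P216L HSC, at 0 in all 3 WT HSC libraries, at 137, 152 and 139 CPM in P216L MEP and at 139 and 177 CPM in WT MEP (edgeR adjusted p = 0.0268 for the difference). Atad2, a chromatin ATPase of dividing cells, was at 465, 95.3 and 235 CPM in P216L HSC and at 0 in WT HSC, with 165 to 281 CPM in P216L MEP (adjusted p = 0.0268). With WT HSC put at its floor, the MEP over HSC ratio was at least 71.1 for Racgap1 and at least 123.5 for Atad2 in WT, against 0.424 and 0.858 in P216L. The fit without WT HSC replicate 2 called 0 genes, as did each fit without 1 MEP library of either genotype, the fit of only the groups compared and voom with weights. DESeq2, by contrast, called 950.

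**Figure D5:**
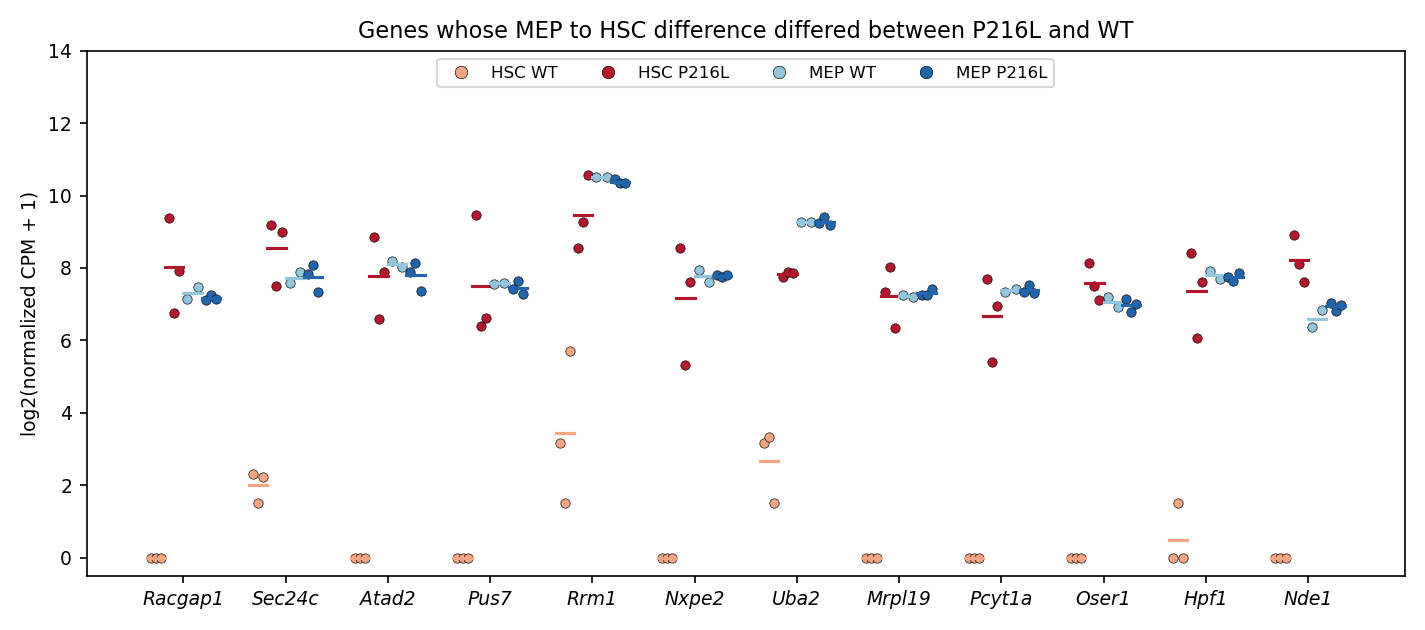
Levels of the 12 genes whose MEP to HSC difference was smaller in P216L than in WT, as log2(normalized CPM + 1) on the y axis; each point is 1 library and bars are means, with light colours for WT and dark for P216L. The WT HSC points lie at 0 for 8 genes, while the P216L HSC points lie at 38.8 to 1504 CPM, above every WT HSC point of the same gene.

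List medians differed between the genotypes in the same table, with no test of the lists. The erythroid membrane list had a median of 0.59 in P216L and 4.11 in WT, DNA replication 0.71 and 3.13, mitosis 0.31 and 2.24, and heme synthesis 0.28 and 1.78, against 0.56 and 0.90 over all genes. Without HSC P216L replicate 3 the P216L medians of these 4 lists were 1.98, 1.57, 1.47 and 1.07, against 1.33 over all genes. In the double mutant they were 0.71, 1.21, 0.81 and 0.45, against 0.09 over all genes. For stem cell transcription factors it was -3.96 in P216L and -3.17 in WT, and for stem cell surface genes -3.27 and -5.66. Of the members of these lists, Rrm1 and Racgap1 passed the test of the difference. Klf1 had a difference of 0.47 in P216L and 3.76 in WT, which was not past the threshold (-3.29, edgeR adjusted p = 0.20).

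Against the double mutant, whose libraries also carry P216L, the MEP to HSC difference passed the test for 0 genes with edgeR, with 1459 (12.1%) at an unadjusted p under 0.05, 432 called by DESeq2 and 0 by voom with weights. The genes with the smallest p-values were at 0 in all HSC libraries of 1 genotype. Wdr41, which forms a complex with C9orf72, was at 0 in P216L HSC, 47.3 to 51.2 CPM in P216L MEP, 114 ± 89.1 CPM (SD, n = 3) in double-mutant HSC and 43.6 ± 9.22 in double-mutant MEP. Thada was at 494, 98.6 and 40.5 CPM in P216L HSC, at 0 in double-mutant HSC and at 12.03 to 16.4 CPM in P216L MEP. Both had an edgeR adjusted p of 0.271 for the difference. Without P216L HSC replicate 3, 24 genes were called.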

How the data were processed

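The authors deposited 1 table of estimated counts per Entrez gene for the 21 libraries. The submitters' processing notes name FastQC, Salmon and the build GRCm39, and no tool version is given in the sources read here. Of its 30519 genes, 30211 took a symbol from the RefSeq gene table, and the rest held 0.0442% of the counts. Estimated counts were rounded to whole numbers. All 21 libraries were fitted together with edgeR 4.0.16 (limma 3.58.1, R 4.3.3): TMM size factors, low-count genes removed by filterByExpr (minimum count 10, minimum total 15), robust quasi-likelihood tests, and Benjamini-Hochberg adjustment at 0.05. HSC and MEP thus share 1 estimate of spread per gene, although the biological coefficient of variation was 1.60 in HSC and 0.174 in MEP over all genotypes. It was 1.06 in the joint fit. Within the P216L groups alone it was 2.09 in HSC and 0.212 in MEP. Differences between genotypes are interaction terms. SE is the fold change over the square root of the F statistic. A group at 0 takes 3 counts over its summed libraries for a lower bound, which covers counting error only. No libraries of a group were duplicates (chi-square per degree of freedom 10.1 to 70.6 within the 2 P216L groups). The test was tried on simulated counts.

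The genes compared and the 24 gene lists were chosen with earlier results of these data known. Of 488 list genes 486 matched, and some lists share members. Named genes are the 5 markers and Etv6, the called genes without overlap, the called member or the member with the smallest p of each list, the 5 genes of largest excess in each HSC library, and the genes with the smallest p in each difference between genotypes. Cd34, Ly6a, Cd27, Ifitm1, Hoxa9, Mecom, Gata1, Tal1, Car2, Mcm5, Jun, Fbl, Heatr1, Rrp9, Rps2, Ldha, Mycn, Esam, Mafk, Tfdp2, Mcm10, Cdt1, Kif20a, Ect2, Bglap, Pecam1, Cdh5, Elane, and Nxpe2, Uba2, Mrpl19, Pcyt1a, Oser1, Hpf1 and Nde1 were named after their values were seen. Alternatives were RLE factors, no count filter, the replicate block, the compared groups alone, voom with weights per cell type, DESeq2 1.42.0, thinning to 406023 counts, a Y-linked covariate, and each library left out. Mitochondrially encoded genes were not analysed here, and the values of some genes that the rule names are not reported here.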

Additional observations from a re-analysis of the deposited data

Results flagged for a closer look

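For 12 genes the MEP to HSC difference itself differed between P216L and WT by the interaction test (edgeR, adjusted p = 0.0268 to 0.047). All 12 were smaller in P216L. The fitted differences (P216L minus WT, log2) were -5.43 for Rrm1, -5.19 for Uba2, -7.06 for Sec24c and -8.09 for Hpf1. WT HSC had counts in at least 1 library for these 4. The other 8 were at 0 in all WT HSC libraries, so the fitted values depend on the prior count and set no bound: -13.43 for Racgap1, -13.21 for Atad2, -13.21 for Pus7, -12.55 for Nxpe2, -12.17 for Mrpl19, -11.83 for Pcyt1a, -12.62 for Oser1 and -12.86 for Nde1. With 3 counts given to the summed WT HSC libraries, their differences ran from -7.39 (Racgap1) to -5.79 (Pcyt1a). Each of the 12 genes passed in 8 to 11 of 20 alternative settings. In all 12, every HSC library of the double mutant also lay above every WT HSC library. The genes were chosen by a test that used these WT HSC libraries, so this order is a description and no separate support. The share of all genes with this order is not given here. Groups of 3 libraries were too small to look for a single outlying library by rule.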

How the results depend on the processing

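Calls between MEP and HSC of P216L numbered 9 as reported, 12 after thinning, 26 with RLE factors, 28 with the Y-linked covariate, 94 with no count filter, 390 with only the 6 libraries, 42 with voom weights per cell type, 1282 with DESeq2, 118 when HSC S211I replicate 2 was dropped from the fit, and 0 to 440 with 1 library left out. The lowest counts were without MEP replicate 1 or 3 and the highest without HSC replicate 3. With the replicate number as a block, 5 were called over all libraries and 70 over the 6. Deviations of same-numbered HSC and MEP libraries had correlations near 0 (r = -0.0135, -0.0141 and -0.0458). The wide spread among HSC libraries could hide a pairing, so this check cannot decide it. The numbers were not taken as pairs. Differences from WT numbered 12, and 950 with DESeq2, 0 with only the groups compared, 1 with the replicate block, 0 with voom weights, 5 without HSC S211I replicate 2, and 0 to 78 with 1 library left out. Differences from the double mutant numbered 0, and 432 with DESeq2, 1 with no filter, 0 with the replicate block, and 0 to 24 with 1 library left out. Over 51 named genes of the main comparison, 641 alternative values kept direction and call, 116 gained the call, 50 lost it, and 1 changed sign: Sparc, at -11.73 as reported and from -12.26 to 2.71 with 1 library left out, the last without HSC replicate 1. The causes of these shifts were not tested. HSC depth limits low genes: 3 counts correspond to 3.32 to 4.87 CPM in HSC and 0.439 to 1.03 CPM in MEP.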
